A study of Mus musculus with 40 samples.

Results

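Tumor-associated macrophage genes are examined here in 40 CT26 tumors by bulk RNA-seq. The 9 members were chosen by symbol: Adgre1, Csf1r, Mrc1, Cd163, Trem2, Spp1, Cx3cr1, Retnla and Chil3. The deposited table had a row for 8 of the 9, among 54087 genes in all, and no row named Retnla. A row named Retnia, a symbol found in none of the annotations used here, is reported under that name and was not counted as a member. It may be Retnla respelled, as a second such row, Retnig, may be the related Retnlg, but the table does not settle this, so that Retnla is not known to be unmeasured. All 8 members with a row passed the filter on low counts, which left 14760 genes for testing.

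BALB/c mice, 6- to 12-week-old per the study's methods, were injected s.c. with 1000000 cells of CT26, a single transplantable colon carcinoma line, and received mAbs i.p. on days 6, 9 and 12. Tumors were collected on day 13 and frozen pieces were used for bulk RNA, so that fewer cells of a type and less RNA per cell cannot be told apart. The 8 groups of 5 mice received an isotype control mAb (motavizumab, mIgG2a), anti-GARP:TGF-β1 clone 58A2 as WT or Fc-dead (FcD) mIgG2a, anti-TGF-β clone 1D11, anti-PD-1 with a silent Fc (PD-1), or WT + PD-1, FcD + PD-1 and TGF-β + PD-1. The WT antibody can bind Fcγ receptors, which macrophages carry, whereas the FcD antibody cannot. The comparisons ask whether macrophage genes differed between each treatment and the isotype group, between each combination and PD-1 alone, and between the combinations.

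Macrophages of a tumor derive from circulating monocytes and from cells resident in the tissue. CSF1R, the receptor for CSF1 and IL-34, maintains the lineage, and F4/80, encoded by Adgre1, is the classical surface marker of mouse macrophages. The mannose receptor (Mrc1) and the haemoglobin scavenger receptor CD163 mark scavenging and resident-type cells, TREM2 is a lipid-sensing receptor of lipid-handling macrophages, and osteopontin (Spp1) is a secreted adhesion protein made by macrophages and also by other cells, including carcinoma cells. CX3CR1 is the fractalkine receptor of monocytes and microglia-like cells, whereas Chil3 (the chitinase-like protein Ym1) and Retnla (RELMα) are induced in mouse macrophages by IL-4 and IL-13, and Ym1 is also made by immature neutrophils.

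Libraries held 11931730 to 20680548 counts (median 14030511). All 20 genes of a list of mononuclear phagocyte identity (such as Cd68, Aif1, Mertk and C1qa) were tested and none was at 0 in any mouse. Replicate 5 of WT + PD-1 stood apart, with a summed identity level of 21426 CPM (counts per 1000000, after scaling of library sizes) against 2992 to 10942 in the other mice, and the counts and fold changes of WT + PD-1 that rest on it are given with and without it. Mice numbered 41 to 60 and 61 to 80 in the labels differed as well. Xist was at 59.2 to 762 CPM in the latter and at most 0.433 in the former, whereas Ddx3y, a Y-linked gene, was at 6.78 to 34.1 CPM in the former and 0 in the latter. Each group held 2 or 3 mice of each number range, so that the treatment groups were not confounded with it.

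Promoters are shown for 4 members whose levels followed different genes from mouse to mouse. Each run holds the 250 bases upstream of the first start site that RefSeq gives for the gene (GRCm38.p6), from 5′ to 3′ on the gene's strand. Capitals mark GAGGAA or its reverse complement TTCCTC, the core bound by PU.1, a transcription factor of the myeloid lineage. The windows are chr17:48346151-48346400 for Trem2, chr2:14229164-14229413 for Mrc1, chr6:124304401-124304650 for Cd163 and chr5:104434861-104435110 for Spp1, all on the + strand.
Trem2: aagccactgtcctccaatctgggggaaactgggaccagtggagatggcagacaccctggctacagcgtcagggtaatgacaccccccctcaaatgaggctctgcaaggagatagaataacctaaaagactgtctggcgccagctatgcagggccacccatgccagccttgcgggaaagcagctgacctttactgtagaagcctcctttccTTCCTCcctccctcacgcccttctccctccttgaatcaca
Mrc1: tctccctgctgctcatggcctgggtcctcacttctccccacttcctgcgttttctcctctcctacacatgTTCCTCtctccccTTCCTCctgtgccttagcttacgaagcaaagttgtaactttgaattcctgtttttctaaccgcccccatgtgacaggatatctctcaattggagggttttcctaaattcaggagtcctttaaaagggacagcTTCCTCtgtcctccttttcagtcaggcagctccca
Cd163: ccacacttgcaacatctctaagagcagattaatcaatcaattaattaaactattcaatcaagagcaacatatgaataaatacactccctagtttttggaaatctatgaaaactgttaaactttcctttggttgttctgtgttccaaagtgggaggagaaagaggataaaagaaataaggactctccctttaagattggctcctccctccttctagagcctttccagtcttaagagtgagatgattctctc
Spp1: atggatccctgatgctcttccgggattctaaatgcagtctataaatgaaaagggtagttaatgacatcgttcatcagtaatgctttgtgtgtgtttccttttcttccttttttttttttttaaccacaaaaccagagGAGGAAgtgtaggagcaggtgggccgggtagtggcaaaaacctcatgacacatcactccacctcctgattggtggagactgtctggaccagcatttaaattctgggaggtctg
The core was present 3 times upstream of Mrc1, 1 time upstream of Trem2 and of this Spp1 start, and 0 times upstream of Cd163. RefSeq promoters were available for 7 of the 9 members, and those of Adgre1 and Csf1r were not analysed here. Of all 32851 promoters searched in the same way, 7639 (23.3%) held the core, so that its presence is common, and a match is a description of the letters only.

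In the genome (GRCm38), Adgre1 lies at chr17:57358691-57483527, Csf1r at chr18:61100598-61132149, Mrc1 at chr2:14229392-14332057, Cd163 at chr6:124304656-124330527, Trem2 at chr17:48346401-48354147 and Spp1 at chr5:104435118-104441050, all on the + strand. Cx3cr1 (chr9:119901616-120069879) and Chil3 (chr3:106147554-106167564) lie on the - strand. All are protein-coding, and counts were summed over their exons.

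The members spanned almost the whole range of expression of the tumor. In isotype mice, Spp1 was the most abundant at 2129 ± 238 CPM (SD, n = 5), above 99.8% of tested genes. Csf1r was at 181 CPM (above 93.3% of genes), Mrc1 at 149 CPM (91.0%) and Adgre1 at 103.9 CPM (85.3%). Cx3cr1 (32.3 CPM), Trem2 (17.3 CPM) and Cd163 (9.45 CPM) lay near or below the middle. Chil3 was at the lower end, at 0.324 CPM, above 2.22% of genes, which corresponded to 1 to 10 counts per mouse.

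Per kilobase of exon, the order in the isotype group was Spp1 (1292 CPM per kb), Adgre1 (32.1), Csf1r (31.4), Mrc1 (23.3), Cx3cr1 (7.18), Trem2 (3.49), Cd163 (1.73) and Chil3 (0.198). Spp1 exceeded Adgre1 in 40 of 40 mice and Mrc1 exceeded Cx3cr1 in 40 of 40. The neighbours Adgre1 and Csf1r were not ordered: Adgre1 was the higher in 20 of 40 mice. Cx3cr1 exceeded Trem2 in 29 of 40 mice and Trem2 exceeded Cd163 in 29 of 40, so that these 3 also overlapped, whereas Cd163 exceeded Chil3 in 38 of 40.

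Variation between mice was far larger for some members than for others. Across all 40 mice, the highest level was 34.7 times the lowest for Chil3, 26.0 times for Adgre1, 17.9 times for Cd163 and 17.6 times for Cx3cr1. It was 8.32 times for Csf1r, 5.51 times for Trem2, 4.09 times for Mrc1 and 3.57 times for Spp1. The plot of levels by group shows that single mice account for several of the widest ranges.

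**Figure D1:**
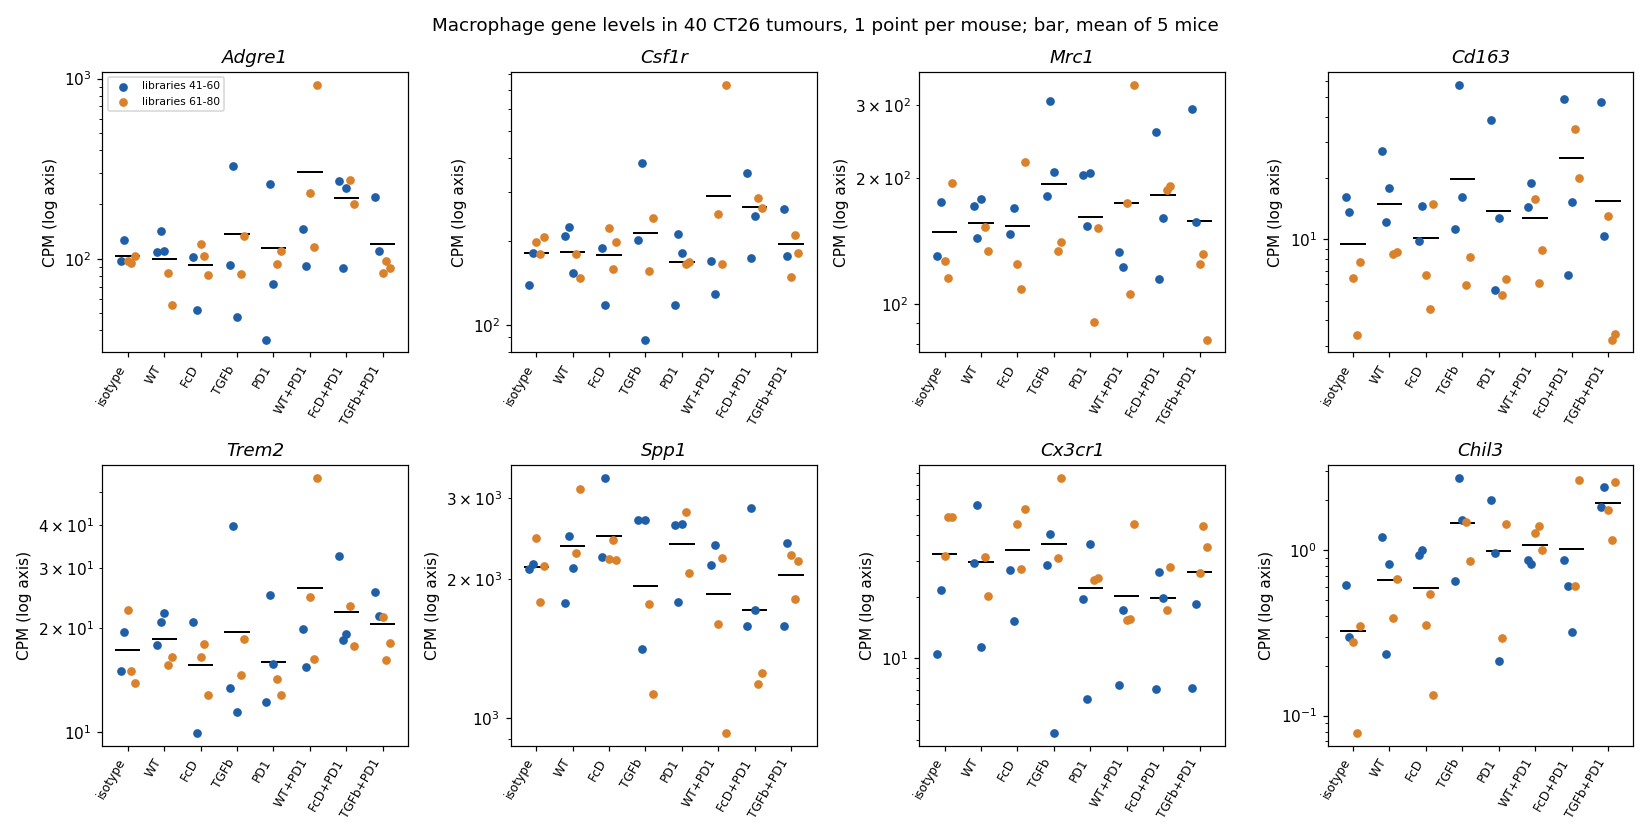
Level of each member in every mouse, in CPM on a log axis, by treatment group (5 mice each; points are mice, coloured by number range, and bars are group means). Adgre1 reaches 925 CPM in 1 WT + PD-1 mouse, and Chil3 lies above every isotype mouse in all 5 mice of the TGF-β, WT + PD-1 and TGF-β + PD-1 groups.

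No member passed the test (adjusted p under 0.05, edgeR quasi-likelihood test with Benjamini-Hochberg adjustment over all genes) in any comparison of a treatment with isotype, of a combination with PD-1 alone, of TGF-β + PD-1 with FcD + PD-1, in any interaction, or across all 8 groups. Few other genes did: the share of all genes called was 0% in the 7 comparisons with isotype, 0% in WT + PD-1 and FcD + PD-1 against PD-1, 0.00678% in TGF-β + PD-1 against PD-1, 0% in the 3 interactions, 0.0271% across all 8 groups, and 6.46% in TGF-β + PD-1 against FcD + PD-1, the exception. Counts at an unadjusted p under 0.05 are therefore given, each beside the share of all genes that reached it in the same direction. Members above isotype at that level numbered 0 of 8 with WT (0.583% of all genes), 0 of 8 with FcD (0.264%), 1 of 8 with TGF-β (1.77%) and 1 of 8 with PD-1 (0.603%). The single member was Chil3 in both, which did not pass the filter once the compared groups were alone in the model, leaving 0 of 7 in each, and the count with PD-1 was 0 of 8 without replicate 1 of PD-1. They numbered 4 of 8 with WT + PD-1 (Adgre1, Csf1r, Trem2 and Chil3, 13.2%), 3 of 8 with FcD + PD-1 (Adgre1, Cd163 and Chil3, 10.7%) and 1 of 8 with TGF-β + PD-1 (8.49%). Without replicate 5 of WT + PD-1, 1 of 8 was above isotype in that group (Chil3, against 2.81% of all genes) and 1 of 8 below (Cx3cr1, against 3.04%). With all mice of its own group, the WT + PD-1 count was 2 of 8 with no filter or with the compared groups alone, and 2 of 8 without replicate 1 or 4 of isotype. The count with FcD + PD-1 was 1 of 8 with no filter, and ran from 1 to 3 as single mice of either group were left out. With all mice, no member was lower than isotype at an unadjusted p under 0.05, which 0.386% (WT), 0.21% (FcD), 0.549% (TGF-β), 0.352% (PD-1), 7.47% (WT + PD-1), 5.85% (FcD + PD-1) and 11.6% (TGF-β + PD-1) of all genes were. Against PD-1 alone, the members higher at that level numbered 3 of 8 with WT + PD-1 (Adgre1, Csf1r and Trem2, 11.2% of all genes), 0 of 8 with FcD + PD-1 (6.46%) and 0 of 8 with TGF-β + PD-1 (7%), and with all mice none was lower (5.99%, 4.27% and 10.1% of all genes). The count with WT + PD-1 was 0 of 8 without replicate 5 of that group or with the compared groups alone in the model, and 1 of 8 without replicate 1 of PD-1. As single mice were left out, the counts ran from 0 to 3 higher and 0 to 1 lower with FcD + PD-1, and from 0 to 1 higher with TGF-β + PD-1. The 3 with FcD + PD-1 were Adgre1, Csf1r and Trem2 without replicate 2 of PD-1, where Spp1 was lower and 11.9% of all genes were higher. With WT + PD-1, Adgre1, Csf1r and Trem2 differed from PD-1 by 1.41, 0.78 and 0.71 on the log2 scale with all mice. Without replicate 5 of WT + PD-1 they differed by 0.36, 0.084 and 0.25, and 2.15% of all genes were higher. DESeq2's Wald test called no member in the comparisons with isotype, in those with PD-1 or between TGF-β + PD-1 and FcD + PD-1. It gave Chil3 no adjusted p in the comparisons of TGF-β + PD-1, so that Chil3 could not be called there (unadjusted p = 1.07e-05 against isotype, DESeq2's Wald test). Across all 8 groups, DESeq2's likelihood ratio test, chosen after the data were seen, called Adgre1 (adjusted p = 0.0408) and Chil3 (adjusted p = 0.0142).

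**Figure D2:**
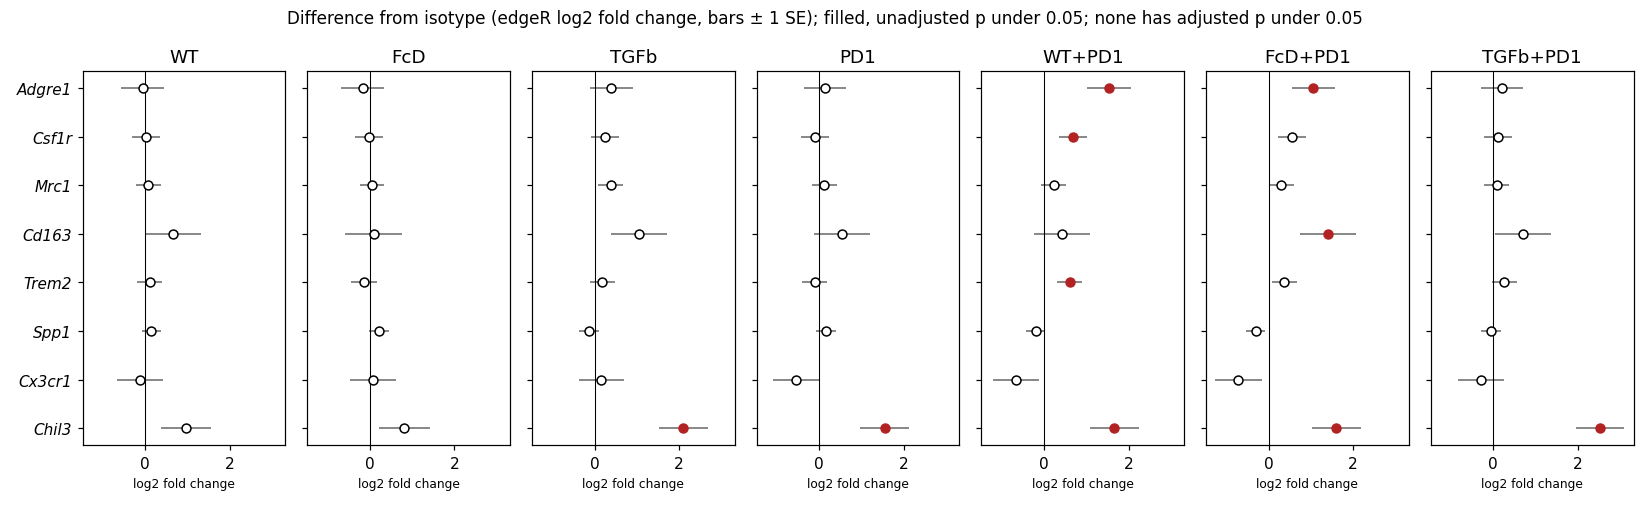
Log2 fold change of each member against isotype in the 7 treated groups (points, edgeR estimates, filled where the unadjusted p is under 0.05; bars, ± 1 SE; 5 mice per group, all 40 in the model). Chil3 has the largest estimates, 2.52 with TGF-β + PD-1 and 2.10 with TGF-β, whereas Mrc1 and Spp1 lie near 0.

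Adgre1 and Csf1r, the lineage markers, had their highest group means in the combinations with anti-GARP:TGF-β1 when all mice were kept. Without replicate 5, the WT + PD-1 mean was 147 CPM for Adgre1 (isotype 103.9 CPM) and 179 CPM for Csf1r (isotype 181 CPM). Adgre1 was at 97.5, 127, 97.1, 94.2 and 104 CPM in the 5 isotype mice, at 147, 91.4, 233, 116 and 925 CPM with WT + PD-1, and at 269, 88.4, 248, 272 and 202 CPM with FcD + PD-1. With WT + PD-1, 3 of 5 mice lay above and 1 below every isotype mouse, and 1 mouse was far above all others. With FcD + PD-1, 4 of 5 lay above and 1 below. The log2 fold change of Adgre1 against isotype was 1.54 ± 0.52 (SE) with WT + PD-1 (unadjusted p = 0.00505, adjusted p = 0.159, edgeR) and 1.05 ± 0.51 with FcD + PD-1 (unadjusted p = 0.0461, adjusted p = 0.297, edgeR). Without replicate 5, the WT + PD-1 value was 0.50 (adjusted p = 0.817), whereas leaving out single mice moved the FcD + PD-1 value between 0.96 and 1.24.

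Adgre1 in the other treated groups lay on no one side of the isotype range, with 2 mice above it and 3 below with TGF-β, 1 above and 3 below with PD-1, 1 above and 2 below with WT and with TGF-β + PD-1, and 0 above and 2 below with FcD. PD-1 mice were at 35.5, 259, 72.2, 93.9 and 110 CPM, and TGF-β mice at 92.3, 328, 47.3, 82.0 and 134 CPM. TGF-β + PD-1 mice were at 220, 110, 83.5, 96.5 and 89.2 CPM, a fold change of 0.21 ± 0.51 on the log2 scale against isotype. Against PD-1 alone, Adgre1 differed by 1.41 ± 0.51 with WT + PD-1 (adjusted p = 0.231, edgeR), a value of 0.36 without replicate 5 of WT + PD-1. Without replicate 2 of PD-1, the mouse at 259 CPM, it was 1.96 and passed the test (adjusted p = 0.0419, edgeR). Up to 538 genes passed this comparison as single mice were left out. That PD-1 mouse also held the highest summed level of the skeletal muscle list, 144 CPM against a median of 2.01 CPM over all mice. The interaction of WT with PD-1 was 1.46 ± 0.72 for Adgre1 (adjusted p = 0.483, edgeR), and 0.42 without replicate 5 of WT + PD-1 (adjusted p = 0.803, edgeR).

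Csf1r, encoded on chromosome 18, followed Adgre1 with smaller differences. It was at 139, 182, 199, 179 and 207 CPM with isotype, at 170, 129, 251.7, 166 and 735 CPM with WT + PD-1, and at 354, 175, 247, 288 and 265 CPM with FcD + PD-1. In the latter group, 4 of 5 mice were above every isotype and every PD-1 mouse. The fold change against isotype was 0.68 ± 0.33 on the log2 scale with WT + PD-1 (unadjusted p = 0.0456, adjusted p = 0.234, edgeR) and -0.017 without replicate 5, so that its direction rested on that mouse. With FcD + PD-1 it was 0.55 ± 0.33 (adjusted p = 0.374, edgeR). The single treatments gave values between -0.10 and 0.24.

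By group mean, Adgre1 was closer to Csf1r in the combinations with anti-GARP:TGF-β1 than in the other groups. The log2 ratio of Adgre1 to Csf1r was -0.80 ± 0.26 (SD, n = 5) with isotype and between -0.97 and -0.78 in 5 of the treated groups. It was -0.20 ± 0.35 with WT + PD-1 (-0.33 ± 0.20 without replicate 5, n = 4) and -0.37 ± 0.39 with FcD + PD-1. In mice 41 to 60, the ratio was -0.52 and -0.52 with isotype, -0.21 and -0.50 with WT + PD-1, and -0.40, -0.98 and 0.006 with FcD + PD-1. In mice 61 to 80, it was -1.04, -0.93 and -0.99 with isotype, -0.11, -0.52 and 0.33 with WT + PD-1, and -0.079 and -0.39 with FcD + PD-1. The difference was thus clearest in mice 61 to 80. This ratio is given as a description, without a test.

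**Figure D3:**
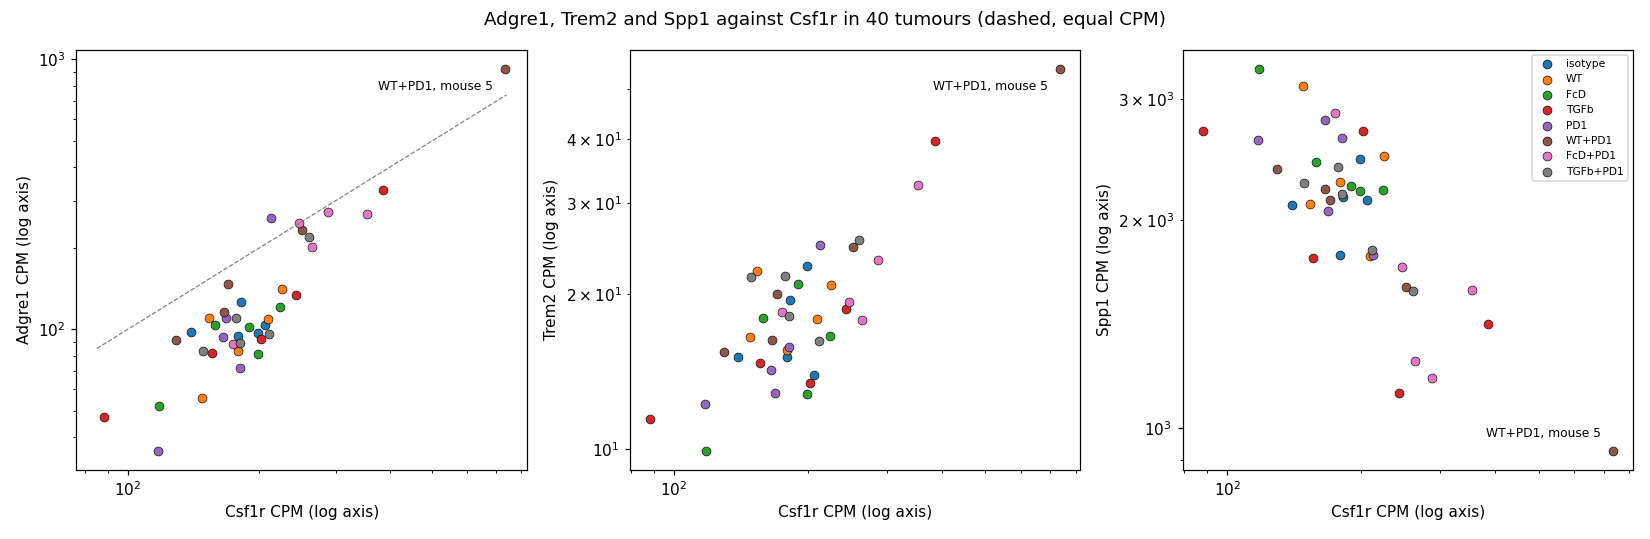
Levels of Adgre1, Trem2 and Spp1 against Csf1r in the 40 mice (CPM on log axes; points are mice, coloured by treatment group; the dashed line marks equal CPM). Adgre1 and Trem2 increase with Csf1r, Spp1 decreases, and the WT + PD-1 mouse at 735 CPM Csf1r lies at the right edge.

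Trem2, whose receptor signals through the adaptor encoded by Tyrobp, had its highest level in the same mouse. It was at 15.1, 19.5, 22.7, 15.1 and 13.9 CPM with isotype and at 20.0, 15.5, 24.7, 16.3 and 54.8 CPM with WT + PD-1. Replicate 5 of WT + PD-1 was the highest, and 2 of 5 mice lay above every isotype mouse. The fold change was 0.61 ± 0.30 on the log2 scale (unadjusted p = 0.0482, adjusted p = 0.239, edgeR) and 0.15 without replicate 5. With FcD + PD-1 (32.6, 18.5, 19.3, 23.3 and 17.8 CPM) it was 0.37 ± 0.30 (adjusted p = 0.511, edgeR). In the TGF-β group, 1 mouse at 39.6 CPM stood above the other 4, at 11.5 to 18.7 CPM, and it was also that group's highest for Adgre1, Csf1r, Mrc1 and Cd163.

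Spp1 was low in the mice with the most Adgre1 and Csf1r. Levels were 2108, 2160, 2453, 1783 and 2139 CPM with isotype, and 1587, 2860, 1712, 1183 and 1253 CPM with FcD + PD-1. In the latter group, 4 of 5 mice lay below and 1 above every isotype mouse, and the same counts held against PD-1 alone. The fold change was -0.31 ± 0.23 on the log2 scale against isotype (adjusted p = 0.487, edgeR) and -0.47 ± 0.23 against PD-1 (adjusted p = 0.458, edgeR). The lowest Spp1 level of all 40 mice, 928 CPM, was in the WT + PD-1 mouse with the highest Adgre1, Csf1r and Trem2, and the highest, 3316 CPM, was in an FcD mouse whose Adgre1 was 52.2 CPM. The interaction of FcD with PD-1 was -0.69 ± 0.33 for Spp1 (adjusted p = 0.787, edgeR). Relative to the mean log2 level of Adgre1 and Csf1r, Spp1 differed from isotype by -1.12 ± 0.44 with FcD + PD-1 (exact permutation test, two-sided, p = 0.0476, adjusted p = 0.381 over 42 tests). Spp1 itself differed by -0.38 on the log2 CPM scale there, and the rest came from higher Adgre1 and Csf1r. Among 7 osteopontin receptor genes, 3 were higher with WT + PD-1 than with isotype at an unadjusted p under 0.05 (13.2% of all genes, median log2 fold change 0.20), with Itga9, an integrin subunit, at 1.07. Without replicate 5 of WT + PD-1, 0 of 7 were higher and 1 was lower (median 0.19), where 2.81% of all genes were higher.

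Mrc1, the mannose receptor, varied least among the membrane receptors. Isotype mice were at 130, 175, 127, 115 and 195 CPM, and group medians lay between 130 CPM with isotype and 188 CPM with FcD + PD-1. Fold changes against isotype ran from 0.05 ± 0.29 with FcD to 0.38 ± 0.30 with TGF-β on the log2 scale (adjusted p from 0.596 to 1.00 over the 7 comparisons, edgeR). Relative to Adgre1 and Csf1r, Mrc1 with FcD + PD-1 differed from isotype by -0.46 ± 0.15 (exact permutation test, two-sided, p = 0.0238, adjusted p = 0.333 over 42 tests). Mrc1 itself was higher there by 0.28 on the log2 CPM scale, and Adgre1 and Csf1r were higher by 0.96 and 0.53. The negative sign therefore came from these reference genes and not from a fall of Mrc1.

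Cd163, the haemoglobin scavenger receptor, varied 17.9-fold over the mice with no group in which all mice were high. Isotype mice were at 16.1, 13.6, 6.46, 3.38 and 7.69 CPM, and FcD + PD-1 mice at 48.9, 6.64, 15.2, 34.8 and 19.9 CPM. In the latter group, 3 of 5 mice lay above every isotype mouse, a fold change of 1.40 ± 0.66 on the log2 scale (unadjusted p = 0.0417, adjusted p = 0.289, edgeR). High mice occurred in 3 further groups: 57.5 CPM in 1 TGF-β mouse, 47.0 CPM in 1 TGF-β + PD-1 mouse and 38.7 CPM in 1 PD-1 mouse. The 5 mice with over 30 CPM of Cd163 also carried adipocyte transcripts at summed levels of 277 to 1149 CPM, against a median of 116 CPM in mice 41 to 60 and 62.3 CPM in mice 61 to 80, although 3 mice with less Cd163 reached 274 to 304 CPM as well. Over the 40 mice, after removal of group means, Cd163 and the summed adipocyte list had r = 0.79 (a description, since a mouse gives both values from 1 library), and the part of adipose tissue in the Cd163 differences was not tested. Against isotype, with FcD + PD-1, 7 of 7 adipocyte genes were higher at an unadjusted p under 0.05 (10.7% of all genes, median log2 fold change 3.17), with summed levels of 565, 124, 304, 1149 and 90.4 CPM against 31.0 to 154 CPM with isotype. Without replicate 4, the highest of them, it was 2 of 7 (median 2.29), where 5.3% of all genes were higher.

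Cx3cr1, the fractalkine receptor, had estimates below isotype in all 4 groups that received anti-PD-1. Isotype mice were at 10.5, 21.6, 31.6, 49.0 and 48.9 CPM, WT + PD-1 mice at 7.44, 17.2, 15.5, 15.6 and 45.6 CPM, and FcD + PD-1 mice at 7.06, 26.5, 19.6, 17.3 and 27.8 CPM. The groups overlapped, with 1 mouse of each combination below every isotype mouse. The fold changes were -0.67 ± 0.55 and -0.71 ± 0.55 on the log2 scale (adjusted p = 0.477 and 0.492 respectively, edgeR). Without replicate 5, the WT + PD-1 value was -1.21 (unadjusted p = 0.0402, adjusted p = 0.800, edgeR). With PD-1 and TGF-β + PD-1 the values were -0.54 and -0.30. Within mice 41 to 60 and 61 to 80, the difference on the log2 CPM scale was -0.41 and -0.92 with WT + PD-1, and 0.037 and -0.94 with FcD + PD-1, so that the FcD + PD-1 difference was near 0 in mice 41 to 60. With WT + PD-1, Cx3cr1 itself differed from isotype by -0.72 on the log2 CPM scale with all mice. Relative to Adgre1 and Csf1r, which had higher means in that group, it differed by -1.38 ± 0.50 (exact permutation test, two-sided, p = 0.0397, adjusted p = 0.381 over 42 tests), and by -1.26 without replicate 5 (exact permutation test, p = 0.0714). Its ligand gene Cx3cl1 had higher estimates with WT + PD-1 (1.37) and FcD + PD-1 (1.70) on the log2 scale, with adjusted p = 0.159 and 0.225 (edgeR). The WT + PD-1 value was 0.91 without replicate 5 (adjusted p = 0.800, edgeR).

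Chil3 gave the largest fold changes of the members, at very low counts. Isotype mice were at 0.618, 0.299, 0.278, 0.0786 and 0.346 CPM, which stand for 10, 4, 4, 1 and 5 counts. TGF-β mice were at 0.653, 2.73, 1.52, 1.48 and 0.858 CPM (8, 35, 20, 22 and 14 counts), and TGF-β + PD-1 mice at 1.82, 2.40, 1.74, 1.15 and 2.56 CPM (24, 37, 23, 14 and 38 counts). All 5 mice of both groups, and of WT + PD-1 (0.875, 0.822, 1.26, 1.39 and 0.996 CPM), lay above every isotype mouse. The share of all genes for which this held in the 14760 tested was 0.102% with TGF-β, 1.35% with WT + PD-1 and 1.73% with TGF-β + PD-1. In FcD + PD-1 mice (0.865, 0.603, 0.321, 0.607 and 2.65 CPM) and PD-1 mice (1.99, 0.966, 0.214, 0.295 and 1.44 CPM) the ranges overlapped that of isotype.

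The log2 fold change of Chil3 against isotype was 2.52 ± 0.57 with TGF-β + PD-1 (unadjusted p = 9.68e-05, adjusted p = 0.106, edgeR) and 2.10 ± 0.58 with TGF-β (unadjusted p = 0.000875, adjusted p = 1.00, edgeR). It was 1.66 ± 0.58 with WT + PD-1, 1.60 ± 0.58 with FcD + PD-1 and 1.55 ± 0.59 with PD-1 (adjusted p = 0.159, 0.240 and 1.00, edgeR). Without replicate 5 of FcD + PD-1, the mouse at 2.65 CPM, the value of that group was 0.84. These treatments shared the 5 isotype mice, among which 1 mouse had a single count, and the comparisons are not independent of each other. Leaving out single mice gave 2.30 to 2.90 with TGF-β + PD-1, and the adjusted p fell to 0.0131 without replicate 1 of TGF-β + PD-1 and 0.0374 without replicate 3 of isotype, and was 0.0410 with the compared groups alone in the model. In the same leave-outs, up to 2006 genes passed this comparison. Against PD-1 alone, TGF-β + PD-1 differed by 0.98 ± 0.52 (adjusted p = 0.327, edgeR). Relative to Adgre1 and Csf1r, Chil3 was higher by 2.12 ± 0.42 with TGF-β + PD-1, with p = 0.00794, the smallest that an exact permutation test of 5 against 5 mice can give (adjusted p = 0.333 over 42 tests).

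Neutrophil markers, whose cells also make Ym1, were measured beside Chil3. Of 9 listed genes, 5 had enough counts to be tested, and their median log2 fold change against isotype was 1.71 with TGF-β, 1.11 with WT + PD-1, 1.64 with FcD + PD-1 and 1.88 with TGF-β + PD-1. The WT + PD-1 median was 0.82 without replicate 5, the mouse with the highest level in that group (182 CPM against 40.7 to 66.9 CPM). Their summed level had a median of 25.4 CPM with isotype, 37.5 CPM with TGF-β, 30.5 CPM with PD-1, 65.5 CPM with WT + PD-1, 80.4 CPM with FcD + PD-1 and 71.4 CPM with TGF-β + PD-1. With TGF-β, replicate 2 alone (274 CPM) lay above every isotype mouse, and the other 4, at 26.3 to 40.3 CPM, lay within the isotype range of 22.2 to 64.1 CPM. The granule and surface markers were sparse, with Ly6g at 0 in 24 of 40 mice, Camp in 25 and Ngp in 12. After removal of group means, Chil3 and the summed list had r = 0.41 over the 40 mice, and the part of neutrophils in the Chil3 differences was not tested. The Chil3 paralogs Chil4 and Chia1 and the Retnla paralog Retnlb were at 0 in all 40 mice. Other relatives were detected: Chil1 had 0 to 88 counts, the highest in replicate 5 of WT + PD-1, and its log2 fold change in that group was 2.31 with that mouse and 0.23 without it. Retn, an adipocyte gene, had 0 to 501 counts, the highest in replicate 4 of FcD + PD-1 (3.10 ± 1.18 on the log2 scale against isotype, adjusted p = 0.243, edgeR), and Retnig had 0 to 79 counts. The row named Retnia held 0 to 147 counts, and its log2 fold change with TGF-β + PD-1 was 3.06 ± 1.10 against isotype (adjusted p = 0.157, edgeR).

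Genes of the same pathways were then counted, from lists of other genes than the members. With WT + PD-1 against isotype, where 13.2% of all genes were higher at an unadjusted p under 0.05, the count was 17 of 20 for phagocyte identity (median log2 fold change 0.82, all genes 0.01). These included Mertk (1.35), a receptor for apoptotic cells, Aif1 (1.26), Mpeg1 (1.29) and Spi1 (0.97), which encodes PU.1. It was 5 of 9 for a list of the CSF1R ligands Csf1 and Il34, Csf2 with its receptor genes, and the myeloid genes Cebpa, Irf8, Runx1 and Tyrobp (median 0.78). The 5 were Csf2ra (0.82), Csf2rb (0.78), Cebpa (0.78), Irf8 (0.80) and Tyrobp (0.93), whereas the ligand genes Csf1 and Il34 were at -0.08 and -0.31. Tyrobp also counts in the next list. The count was 10 of 15 for TREM2 adaptors and lipid-handling genes (median 1.00), such as Lipa (1.65), Plin2 (1.42), Abca1 (2.07) and Ctsd (1.00). Without replicate 5, 2.81% of all genes and 0 of 20 identity genes, 0 of 9 genes of the CSF1R ligand list and 3 of 15 TREM2 genes were higher, with medians of 0.32, 0.21 and 0.42. None of these genes passed the adjusted threshold. That mouse also had the highest summed level of T cell genes (296 CPM) and mast cell genes (392 CPM) of all 40. The same held for blood endothelial genes (443 CPM), dendritic cell genes (141 CPM) and NK cell genes (39.5 CPM) in that mouse. Mast cell genes were not particular to it: their summed level was 111 to 392 CPM in the 5 WT + PD-1 mice, above every isotype mouse (29.2 to 90.4 CPM), and 5 of 5 genes were higher at an unadjusted p under 0.05 with that mouse (median 1.75) and without it (1.33). With FcD + PD-1 it was also 5 of 5 (median 1.31), and 4 of 5 mice lay above every isotype mouse. Among them, with WT + PD-1, were Tpsb2 (1.81), Cpa3 (1.81) and Cma1 (1.75), which encode mast cell proteases, and the part of mast cells in the counts of this group was not tested.

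With FcD + PD-1, where 10.7% of all genes were higher, the counts were 11 of 20 for identity (median 0.67), 5 of 9 for the list of CSF1R ligands, CSF2 receptor and myeloid genes (0.72; again Csf2ra, Csf2rb, Cebpa, Irf8 and Tyrobp, and neither Csf1 nor Il34), 9 of 15 for TREM2 and lipid handling (0.74) and 6 of 11 for tissue-resident scavenger genes (1.15). As each FcD + PD-1 mouse was left out, 5.3% to 14.9% of all genes were higher, and the counts ran from 4 to 13 for identity, 4 to 5 for the CSF1R ligand list, 2 to 9 for TREM2 and lipid handling and 3 to 8 for scavenger genes. The lowest identity, TREM2 and scavenger counts came without replicate 1, where 6.61% of all genes were higher. Genes of the response to IFNγ and LPS were higher in 10 of 13 (median 0.88), among them Nos2, the inducible nitric oxide synthase (2.26). Genes of the response to IL-4, IL-13 and IL-10, the cytokines linked to Chil3 and Retnla, were higher in 8 of 15 and lower in 1 (median 0.60). In the same leave-outs these counts ran from 8 to 10 and from 5 to 9. With WT + PD-1, the IFNγ and LPS count was 6 of 13 (median 0.55) and the IL-4 count 7 of 15 (0.63), against 13.2% of all genes. Without replicate 5 of WT + PD-1 they were 5 of 13 (0.59) and 1 of 15 (0.23), against 2.81%. With FcD + PD-1, the 7 epithelial genes were all higher at that level as well (median 3.30), and 0 of 7 were without replicate 4 (0.68). That mouse had a summed epithelial level of 522 CPM, 1 other was at 60.3 CPM, and the remaining 3 (7.29 to 12.8 CPM) lay within the isotype range of 6.87 to 30.3 CPM. The part of tissue composition in these counts was not tested.

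With TGF-β + PD-1, where 8.49% of all genes were higher, only 2 of 20 identity genes reached an unadjusted p under 0.05 (median 0.42), against 3 of 15 TREM2 genes (0.47) and 7 of 13 IFNγ and LPS genes (0.74). With TGF-β alone it was 0 of 20 identity genes (median 0.24). Between TGF-β + PD-1 and FcD + PD-1, in which 954 genes passed the adjusted test (0 without the filter or with those groups alone in the model, and 0 to 4612 as single mice were left out), 0 of 8 members and 0 of 20 identity genes did, and member estimates ran from -0.85 ± 0.51 for Adgre1 to 0.92 ± 0.52 for Chil3 (adjusted p = 0.249 and 0.218, edgeR). Without replicate 1 of TGF-β + PD-1, the mouse at 47.0 CPM, the log2 difference of Cd163 from FcD + PD-1 was -1.72, against -0.70 with all mice. It passed the test (unadjusted p = 0.0130, adjusted p = 0.0445, edgeR). Up to 4612 genes passed this comparison when single mice were left out, so that the call was not particular to Cd163.

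The members fell into sets that moved together from mouse to mouse. After removal of group means, over 40 mice, Pearson's r was 0.89 between Adgre1 and Csf1r, 0.85 between Adgre1 and Trem2 and 0.80 between Csf1r and Trem2. Spp1 ran against all 3, with r of -0.78, -0.75 and -0.60. Mrc1 and Cd163 had r = 0.70, and Mrc1 also had r = 0.53 with Csf1r and 0.49 with Adgre1. Cd163 and Adgre1 had r = 0.14, and Cx3cr1 and Cd163 r = -0.38, which was -0.14 once the number range of the mice was removed as well. These values are descriptions, since each pair comes from the same libraries and shares their depth, and without the 2 mice farthest from the median they were 0.83 for Adgre1 with Csf1r, -0.72 for Adgre1 with Spp1 and 0.75 for Mrc1 with Cd163.

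**Figure D4:**
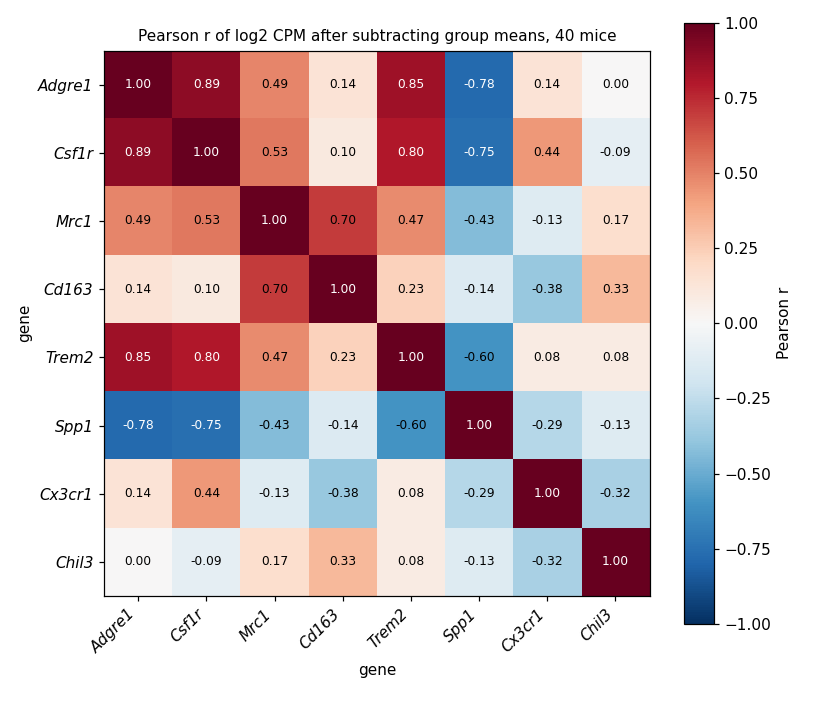
Pearson's r between members over the 40 mice, on log2 CPM after removal of group means. Adgre1, Csf1r and Trem2 form a block of r from 0.80 to 0.89, Spp1 is negative with each of them, and Mrc1 and Cd163 form a pair at 0.70.

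The genes most like each member, over all tested genes by the same r, were of different kinds. For Adgre1 they were Rassf4 (0.99), Nckap1l (0.98) and Camk1d (0.97), and for Csf1r Man2b1 (0.97), Elmo1 (0.96) and P2ry6 (0.96). For Trem2 they were Tyrobp, its adaptor (0.94), Lgmn (0.93) and Ctsh (0.93). Mrc1 was most like Tfec (0.86), Nxpe5 (0.86) and Trpv4 (0.85), and Cd163 most like Npl (0.89), F13a1 (0.86) and Ednrb (0.85). Spp1 was most like RP23-251I6.1 (0.90), Tpt1-ps3 (0.90) and Eif3h (0.89), of which the last encodes a translation initiation factor. Cx3cr1 was most like Lilra5 (0.89), Itgb5 (0.84) and Ablim1 (0.82). For Chil3, the values were lower, with Hdc at 0.58 and Cxcl3 at 0.57.

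Cd163 differed between the number ranges of the mice, although its levels in the 2 ranges overlapped. It was the sole member called in any comparison by edgeR before alternative settings were tried. Mice 61 to 80 had lower Cd163 than mice 41 to 60, with medians of 7.17 CPM (range 3.21 to 34.8) and 14.9 CPM (range 5.66 to 57.5). It fell by 1.14 ± 0.29 on the log2 scale with groups in the model (adjusted p = 0.0322, edgeR), where 1.68% of all genes passed. Without the filter on low counts the value was -1.13 and did not pass (adjusted p = 0.0719, edgeR). The direction held in 7 of 8 groups, FcD + PD-1 being the exception. The call was lost without any one of 8 mice (isotype replicate 1, TGF-β replicates 4 and 5, PD-1 replicates 4 and 5, FcD + PD-1 replicate 1, and TGF-β + PD-1 replicates 1 and 5), with adjusted p up to 0.0845, while the value stayed between -1.24 and -0.96. Cx3cr1 had the opposite direction, with medians of 31.1 CPM against 19.0 CPM and a log2 difference of 0.80 ± 0.26 (adjusted p = 0.132, edgeR), in 7 of 8 groups, WT being the exception.

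**Figure D5:**
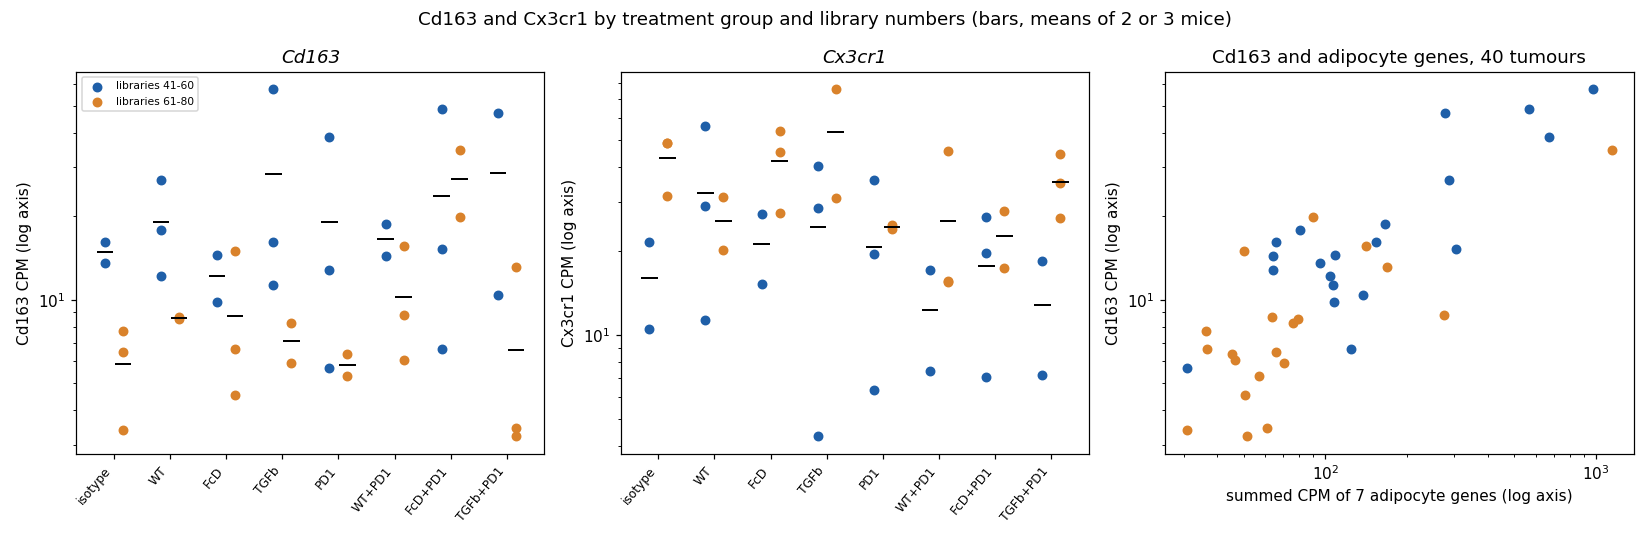
Cd163 (left) and Cx3cr1 (middle) by treatment group and number range (CPM on log axes; points are mice, bars are means of 2 or 3 mice), and Cd163 against the summed CPM of 7 adipocyte genes (right, both axes log). Cd163 is lower in mice 61 to 80 in 7 of 8 groups, Cx3cr1 is higher in 7 of 8, and the 5 mice with the most Cd163 have 277 to 1149 CPM of adipocyte transcripts.

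Other lists moved with the number range too. The 7 epithelial genes were all higher in mice 61 to 80 and passed the adjusted test, with summed levels of 20.7 to 522 CPM against 5.08 to 18.2 CPM. The 7 adipocyte genes were all lower at an unadjusted p under 0.05 (median log2 fold change -1.58), as were 6 of 11 scavenger genes (-0.50), against 7.03% of all genes. Of the scavenger genes, Ccl8, a chemokine, fell by 1.37 (adjusted p = 0.00442, edgeR). The number range and the sex-linked transcripts cannot be told apart, and the part of adipose tissue in the Cd163 difference was not tested. Within each range, the Adgre1 difference of FcD + PD-1 from isotype was 0.70 (41 to 60) and 1.25 (61 to 80) on the log2 CPM scale, and that of WT + PD-1 was 0.06 and 1.57, the latter 0.74 without replicate 5. For Csf1r with FcD + PD-1 it was 0.64 and 0.50, and for Cd163 it was 0.20 and 2.22. For Chil3 it was 1.43 and 1.85 with TGF-β, 0.78 and 1.93 with WT + PD-1, and 0.28 and 2.03 with FcD + PD-1, so that the Chil3 differences had the same sign in both ranges.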

How the data were processed

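Bulk RNA of 40 tumors (8 groups of 5 mice, by the labels) had been sequenced by the authors as stranded mRNA libraries, and gene counts were deposited as 1 table. According to the submitters' processing notes and the study's methods, STAR 2.5.3a, SAMtools 1.6 and HTSeq 0.9.1 were used with GRCm38, and the annotation release is not given in the sources used here. Genes that passed filterByExpr (14760) were tested in edgeR 4.0.16 (R 4.3.3) with TMM scaling and a robust quasi-likelihood fit of 8 groups, and p-values were adjusted by Benjamini-Hochberg over all genes. SEs were derived from each estimate and its F statistic. CPM were computed with TMM-scaled library sizes, and log2 CPM with a prior count of 2. Levels relative to the mean of Adgre1 and Csf1r were compared by two-sided exact permutation tests over all divisions of 10 mice, adjusted over 42 tests (6 members, 7 groups; 7 members were planned, but Retnla had no row). The fit was tested on simulated counts. Alternatives were DESeq2 1.42.0, no filter, a prior of 0.5, the compared groups alone, the number range as covariate, and each mouse left out. Genes named are the members, the 3 most like each by r, and at most 4 a list with the smallest unadjusted p. Beyond this rule, genes are named to describe a list (such as Csf1, Il34 and Csf2rb), the number ranges, sparse neutrophil markers or paralogs. Some genes that this rule names are not reported here. The call across groups and the list counts without single mice were checked after seeing the data. The members and lists were chosen with earlier results of these data known. Positions are from GENCODE for GRCm38. Separate mice are replicates, and 0 columns of other samples were left out.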

Additional observations from a re-analysis of the deposited data

Results flagged for a closer look

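In 12 of 64 sets of 5 mice (8 members in 8 groups), the highest or lowest mouse stood apart by Dixon's test on CPM at its 95% critical value for 5 values. For independent, normally distributed values, chance exceeds it in about 1 of 20 sets. CPM were not log-transformed here, and the same mice enter the sets of all 8 members, so that 12 of 64 cannot be set against that rate. With WT + PD-1, replicate 5 stood apart for Adgre1 (925 CPM), Csf1r (735 CPM), Trem2 (54.8 CPM) and Cx3cr1 (45.6 CPM). With TGF-β, replicate 2 stood apart for Cd163 (57.5 CPM) and Trem2 (39.6 CPM). With PD-1, replicate 1 stood apart for Cd163 (38.7 CPM) and replicate 2 for Trem2 (25.0 CPM). With TGF-β + PD-1, replicate 1 stood apart for Adgre1 (220 CPM) and Cd163 (47.0 CPM). With FcD, replicate 2 stood apart for Spp1 (3316 CPM), and with FcD + PD-1, replicate 5 stood apart for Chil3 (2.65 CPM). The mouse that stood apart was the highest of its group each time. The reasons were not tested.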

How the results depend on the processing

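No member passed the adjusted threshold in the comparisons of treatments under DESeq2's size factors, no filter, DESeq2's Wald test or the number range as covariate. Chil3 could not be called by DESeq2's Wald test between TGF-β + PD-1 and isotype, PD-1 or FcD + PD-1, where it had no adjusted p. With the compared groups alone, 1 member (Chil3, TGF-β + PD-1 against isotype) passed, against 0 in the model of all mice. As single mice were left out, the number of members called ran from 0 to 1 in TGF-β + PD-1 against isotype (Chil3), from 0 to 1 in WT + PD-1 against PD-1 (Adgre1), from 0 to 1 in TGF-β + PD-1 against FcD + PD-1 (Cd163 at -1.72, adjusted p = 0.0445, without replicate 1 of TGF-β + PD-1), and from 0 to 2 across all 8 groups (Chil3 without replicate 2 of FcD + PD-1, Adgre1 and Chil3 without replicate 1 of TGF-β + PD-1). DESeq2's likelihood ratio test, chosen after seeing the data, called 2 members (Adgre1 and Chil3) across the groups, against 0 by edgeR. Between number ranges the count was 0 without a filter, against 1, and ran from 0 to 1 as single mice were left out. Leaving out single mice moved Csf1r with WT + PD-1 against isotype between -0.017 and 0.87. Counts over all genes depended on the setting: TGF-β + PD-1 against isotype gave 0, 137 by DESeq2, 8 with the compared groups alone and 0 to 2006 as single mice were left out. Against FcD + PD-1 it gave 954, 2236 by DESeq2, 0 without a filter or with the compared groups alone, and 0 to 4612. Against PD-1 it gave 1, 78 by DESeq2 and 0 to 1734. FcD + PD-1 against isotype gave 0, 13 by DESeq2, 17 with the covariate and 177 with the compared groups alone. WT + PD-1 against PD-1 gave 0 to 538 as single mice were left out. Across all groups the count was 4, then 9 without a filter, 35 with the covariate, 1297 by DESeq2's likelihood ratio test and 0 to 2288. Between number ranges it was 248 and 536 by DESeq2. The causes were not tested. Of 103 further fold changes, 7 changed sign with all mice kept and 45 under any alternative, single mice left out included. Chil3 rests on 1 to 40 counts per mouse. No paired analysis was possible because replicate numbers only follow the order of the samples.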
